A study of Homo sapiens with 5 samples.

Results

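RAB proteins are small GTPases that sort membrane traffic, and the RAB genes described here are the protein-coding genes whose symbol is RAB, a number and at most 1 letter. GENCODE release 44 annotates 63 such genes, and 47 of them had a row among the 13822 genes of the deposited table. Of these 47, 43 reached a mean level of 0.5 FPKM (fragments per kilobase of gene, scaled to the counted fragments of each library) over the 5 libraries and were tested, together with 12245 genes in all. The libraries came from RH4 cells, an established line of alveolar rhabdomyosarcoma, a childhood muscle-lineage tumour often driven by fusion of PAX3 to FOXO1. Cells received 30 nM of either a control siRNA (si-SCR, 3 libraries) or an siRNA directed to the back-splice junction of circVAMP3 (si-circVAMP3, 2 libraries), a circular RNA made from exons of VAMP3. Medium was changed at 24 h, cells were collected 24 h later, and stranded poly-A libraries were made from whole lysates. The study's methods call the libraries of a group biological replicates. The comparison asks which transcripts differ in level once circVAMP3 is targeted.

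A RAB protein carries a lipid anchor on its C-terminal end and cycles between a GDP-bound form held in the cytosol by GDI proteins and a GTP-bound form on a membrane. Exchange factors (GEFs) load GTP, GTPase-activating proteins (GAPs) end the active state, and effectors bound by the active form include tethers, motor adaptors and coat regulators. Each RAB marks its own compartment: RAB1 and RAB2 act between endoplasmic reticulum and Golgi, RAB5 on early endosomes, RAB11 on recycling endosomes and RAB7 on late endosomes. VAMP3 is a SNARE of recycling endosomes, so its product works on membranes that RAB proteins sort.

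The siRNA is printed first as the study lists it and then as the complementary strand derived from its first 19 bases, with bases 2 to 8 of that complementary strand and their partners in capitals.
si-circVAMP3, listed strand: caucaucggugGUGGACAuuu
si-circVAMP3, complementary strand: aUGUCCACcaccgaugaug
These 7 bases pair with GTGGACA in a transcript. The longest run of the listed strand found in the annotated linear VAMP3 transcript is 12 bases, starting at base 8 of the strand, and it lies in the coding part of VAMP3 around the following 7 bases in capitals, at chr1:7777163-7777169 on the plus strand (GRCh38).
VAMP3, coding: gtagatgaggtgGTGGACAtaatg
VAMP3 itself was measured at 36.4, 35.4 and 37.4 FPKM in the 3 si-SCR libraries and at 29.4 and 30.2 FPKM in the 2 si-circVAMP3 libraries. Both si-circVAMP3 libraries lay below all si-SCR libraries, a log2 difference of -0.29 (SE 0.043, adjusted p = 0.00496). Without si-circVAMP3 library 1 the log2 difference was -0.27 and the adjusted p 0.0507. The gene-level poly-A values do not separate circular from linear RNA, so circVAMP3 was not measured here.

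The libraries held 29224238, 27686041 and 27618575 counted fragments in si-SCR and 20598200 and 31886799 in si-circVAMP3, as recovered from the ratios of the FPKM values. Muscle and tumour markers were present, and no other line was set beside them. All 8 such markers passed the filter, DES at 248 to 292 FPKM and MYOD1 at 84.3 to 127 FPKM over the 5 libraries. PAX3 was the lowest of the 8, at 2.13 to 2.46 FPKM. Among the markers of other cell types, PTPRC, EPCAM and LUM had no row, PECAM1 lay between 0.0777 and 0.153 FPKM, and COL3A1, the most abundant of the 5, was at 33.6, 31.1 and 31.5 FPKM in si-SCR and at 29.5 and 27.1 FPKM in si-circVAMP3. The groups did not overlap, and COL3A1 was lower in si-circVAMP3 without passing the test (log2 difference -0.18, SE 0.057, adjusted p = 0.0518). The 5 markers of other cell types summed to 33.8, 31.2 and 31.6 FPKM in si-SCR and to 29.6 and 27.2 FPKM in si-circVAMP3, and their part in the RAB differences was not tested. MYOG, the myogenin gene of differentiating muscle cells, was at 175, 179 and 149 FPKM in si-SCR and at 101 and 96.6 FPKM in si-circVAMP3. MYOG thus fell (log2 difference -0.76, SE 0.081, adjusted p = 0.00156), as did FOXO1 (log2 difference -0.26, SE 0.064, adjusted p = 0.0241), while the other 6 muscle and tumour markers did not pass. The FOXO1 call was lost without si-SCR library 2 (adjusted p = 0.0818), si-circVAMP3 library 1 (adjusted p = 0.154) or si-circVAMP3 library 2 (adjusted p = 0.0801). In bulk lysates, fewer cells with a transcript and less of it per cell cannot be told apart. Library 3 of si-SCR stood somewhat apart: the SD of its log2 differences over genes was 0.207 to library 1 and 0.183 to library 2, against 0.135 between libraries 1 and 2. The si-circVAMP3 libraries differed from each other with an SD of 0.144.

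With si-circVAMP3, 17 of the 43 tested RAB genes passed the test (39.5%), against 30.4% of all genes tested. Lower levels were called for 10 RAB genes (23.3%, against 15.8% of all genes) and higher levels for 7 (16.3%, against 14.6%). Past the study's own cutoff of 0.58 on the log2 scale, 3 RAB genes were lower (6.98%, against 2.72% of all genes) and 0 were higher (0%, against 1.09%), the highest log2 difference by limma being 0.38, and 0.43 in any alternative fit of a called gene. The number lower past this cutoff was 1 with a pseudocount of 1 FPKM, where RAB32 alone was past it, and 4 with a pseudocount of 0.1 FPKM or voom. It was 2 with a filter of 1 FPKM, which leaves out RAB27A. That gene passed the filter of 0.5 FPKM only through its higher si-SCR levels. Likewise, RAB39B, with a mean of 1.09 FPKM, passed the filter of 1 FPKM only through si-SCR. Its mean was 1.35 FPKM in si-SCR and 0.69 FPKM in si-circVAMP3. The log2 difference of RAB32 was -0.46 without si-circVAMP3 library 1, and that of RAB39B -0.54 without si-circVAMP3 library 2, both short of the cutoff. RAB27A, which docks secretory vesicles, RAB39B, a Golgi and autophagy RAB, and RAB32, a RAB of lysosome-related organelles, had the lowest log2 differences with the pseudocount of 0.5 FPKM used here. RAB34, of the Golgi and the primary cilium, had the highest. The family did not move one way as a whole. Its median log2 difference was 0.005 with 21 genes below 0 and 22 above, and the median over all genes was 0.007. The median absolute difference was 0.171 for RAB genes and 0.151 for all genes. The si-SCR and si-circVAMP3 values did not overlap in 29 of the 43 tested RAB genes (67.4%, against 58.5% of all genes). These were the 17 called ones and 12 of the 26 others. Among them, RAB27A and RAB3A passed the filter only through si-SCR. Fewer genes of any kind were called with 1 si-circVAMP3 library. Without library 1, 6 RAB genes were called (14%, against 10.7% of all genes), and without library 2, 10 RAB genes (23.3%, against 10.3% of all genes).

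**Figure D1:**
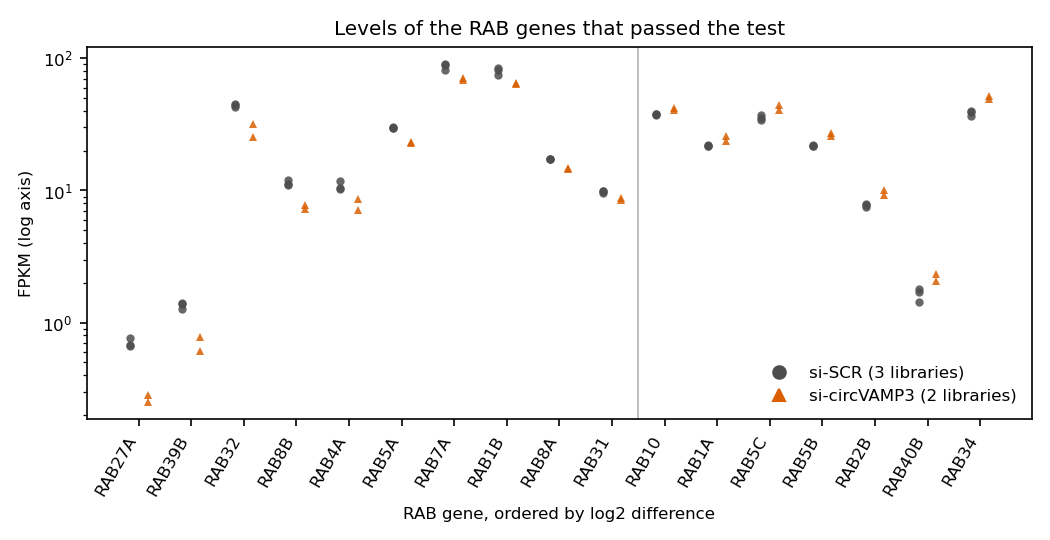
Level in FPKM (log axis) of the 17 RAB genes that passed the test in each of the 5 libraries, with circles for si-SCR and triangles for si-circVAMP3, ordered by log2 difference. The 10 genes to the left of the line are lower with si-circVAMP3 and the 7 to the right are higher, and in each gene the circles and triangles do not overlap.

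Levels spanned a wide range across the family, from a mean of 0.147 FPKM for RAB43 to 80.2 FPKM for RAB7A, with a median of 8.47 FPKM over the 47 genes. The 8 most abundant were RAB7A, RAB1B, RAB34, RAB10, RAB5C, RAB32, RAB6A and RAB5A. Of these RAB6A alone was not called, against 30.4% called of all genes, and the share called at such levels was not counted. The calls of RAB7A, RAB1B, RAB10 and RAB5C depended on single libraries, as given below. RAB6A, which acts in transport within and back from the Golgi, was at 28.1, 28.2 and 27.7 FPKM in si-SCR and at 27.7 and 27.1 FPKM in si-circVAMP3, so the groups nearly touched, and its log2 difference of -0.03 had a 95% confidence interval from -0.13 to 0.06. Summed over the 47 genes, the level was 694.7, 703.2 and 697.4 FPKM in si-SCR and 661.8 and 670.4 FPKM in si-circVAMP3. The sum was therefore lower in both si-circVAMP3 libraries, a difference that was not tested.

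Matches to the siRNA's 7 bases were next read from the annotated transcripts, 1 for each of 10943 coding genes tested, a choice made after the values were seen. GTGGACA occurred in 31.2% of these transcripts and in 8 of the 43 tested RAB transcripts (18.6%). Over all coding genes, the 1257 with the match in the 3′ UTR had a median log2 difference of -0.11, with 33.7% called lower and 7.6% higher. The 2082 with a match in the coding part and none in the 3′ UTR had a median of -0.05, with 23.9% lower and 9.7% higher. The 7530 with no match had a median of 0.04, with 11.1% lower and 18.8% higher. Transcripts with the match were also longer, with a median length of 5101 bases for the 3′ UTR class and 4128 bases for the coding class against 3004 bases without it. For comparison, bases 2 to 8 of the listed strand pair with CGATGAT, and the 198 genes with that match in the 3′ UTR had a median log2 difference of -0.02 and a median length of 5892 bases, with 20.2% called lower and 12.1% higher. The 517 genes with CGATGAT in the coding part and none in the 3′ UTR had a median of -0.01, with 17.2% lower and 16.1% higher. Without CGATGAT, 16.0% were lower and 15.8% higher. The part of length and of the match in these differences was not tested.

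Of the 8 tested RAB genes with GTGGACA, 4 were called lower (50%, against 27.4% of all coding genes with the 7 bases). Nothing is read from this share, which 1 gene moves by many percent. Of the 10 RAB genes called lower, 4 hold the 7 bases and 6 do not, against 934 and 833 of all coding genes called lower. The 8 are printed because of these 4, with the 7 bases in capitals, read 5′ to 3′ along each transcript.
RAB5A, 3′ UTR: aatgagaactatGTGGACActtgt
RAB26, 3′ UTR: ggggagcggcaaGTGGACAgactt
RAB6B, 3′ UTR: gttgaagtctttGTGGACAtatct
RAB27A, coding: atggaacggtgtGTGGACAagtcc
RAB32, coding: gaagaaaacgatGTGGACAaaatt
RAB1B, coding: accaagaaggtgGTGGACAacacc
RAB11B, coding: gggaacaacgtgGTGGACAtcagc
RAB40B, coding: ccggtgcacctgGTGGACAagctc
In GRCh38 the capitals lie at chr3:19984046-19984052 on the plus strand for RAB5A, chr16:2153670-2153676 on the plus strand for RAB26 and chr3:133827605-133827611 on the minus strand for RAB6B. Those of RAB27A lie at chr15:55205602-55205608 on the minus strand, those of RAB32 at chr6:146554543-146554549 on the plus strand and those of RAB1B at chr11:66275915-66275921 on the plus strand. Those of RAB11B lie at chr19:8403487-8403493 on the plus strand and those of RAB40B at chr17:82658069-82658075 on the minus strand. RAB1B and RAB11B each held a run of 11 bases of the listed strand around the capitals, the longest among the RAB genes. Of these 2 genes, RAB1B was called lower (log2 difference -0.30) and RAB11B was not called (log2 difference 0.14, 95% confidence interval from -0.24 to 0.51). The RAB11B value moved with single libraries, from -0.01 without si-circVAMP3 library 2 to 0.28 without si-circVAMP3 library 1, so it gives no direction. RAB5A, RAB27A and RAB32 were also called lower, RAB40B was called higher, and RAB26 and RAB6B were not called. The median log2 difference was -0.23 over these 8 RAB genes. RAB27A, which counts among the 4 called lower and in this median, passed the filter only through its higher si-SCR levels. Over the 35 tested RAB genes without the 7 bases it was 0.02, with 6 called lower and 6 higher (17.1% each, against 11.1% lower and 18.8% higher of all coding genes without them). A match of letters describes these transcripts only, and pairing with the siRNA was not tested.

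**Figure D2:**
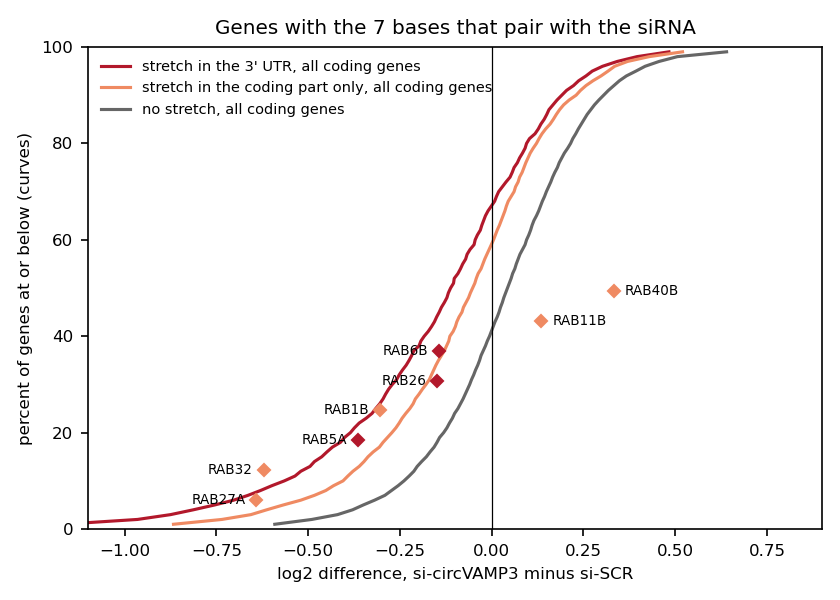
Curves give the percent of coding genes at or below each log2 difference (si-circVAMP3 minus si-SCR) for the 1257 genes with the 7 bases in the 3′ UTR, the 2082 with them in the coding part only and the 7530 without them. Diamonds mark the 8 RAB genes with the 7 bases at their log2 differences, coloured by where the bases lie, and the height of a diamond carries no value; 6 of them lie left of 0 and RAB11B and RAB40B lie right of it.

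On early endosomes, 3 of the 9 tested RAB genes fell (33.3%, against 15.8% of all genes), 2 rose (22.2%, against 14.6%) and 4 were not called. Each compartment holds so few RAB genes that 1 call moves its share by many percent, and nothing is read from these shares. The 3 RAB5 genes, which encode closely related GTPases that drive fusion of early endosomes, split between the directions. RAB5A was at 29.7, 29.8 and 30.0 FPKM in si-SCR and at 22.8 and 23.3 FPKM in si-circVAMP3. The values were tight within each group and far apart between them, and RAB5A fell by 22.6% (log2 difference -0.36, SE 0.039, adjusted p = 0.00157). RAB5B was at 21.6, 21.8 and 22.3 FPKM in si-SCR and at 27.1 and 25.9 FPKM in si-circVAMP3. Both si-circVAMP3 libraries were above every si-SCR library, and RAB5B rose by 20.8% (log2 difference 0.27, SE 0.044, adjusted p = 0.00636). RAB5C was at 33.9, 37.0 and 35.5 FPKM in si-SCR and at 44.5 and 40.4 FPKM in si-circVAMP3, again without overlap, and rose by 19.6% (log2 difference 0.25, SE 0.059, adjusted p = 0.0205). Without si-circVAMP3 library 1 the RAB5B and RAB5C calls were lost, with adjusted p = 0.060 and 0.141. RAB5C is also less certain because 38.8% of the 100-base windows of its transcript lie in an overlapping gene on the same strand as well, ENSG00000267261, and fragments that fit both could not be assigned.

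With 1 RAB5 gene lower and 2 higher, the summed level of the 3 genes lay above its control range in both si-circVAMP3 libraries, only just so in library 2. The sum was 85.2, 88.7 and 87.8 FPKM in si-SCR and 94.4 and 89.6 FPKM in si-circVAMP3. RAB5A made up 34.9%, 33.6% and 34.2% of that sum in si-SCR and 24.2% and 26.0% in si-circVAMP3. RAB5A thus took a smaller share of the RAB5 pool in both si-circVAMP3 libraries, a description that was not tested. RAB5A is the one RAB5 gene with the 7 bases shown above, and whether they bear on its level was not tested.

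**Figure D3:**
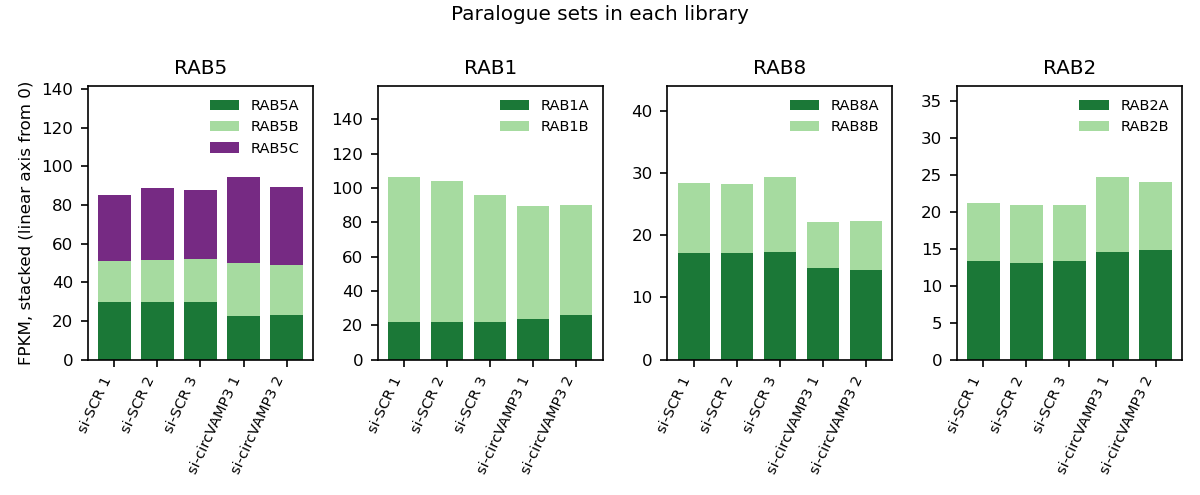
Stacked levels in FPKM (linear axis from 0) of the RAB5, RAB1, RAB8 and RAB2 genes in each of the 5 libraries. RAB5A and RAB1B take smaller parts of their stacks in both si-circVAMP3 libraries, both RAB8 genes are lower there, and both RAB2 genes are higher, RAB2A without passing the test.

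RAB4A, which returns cargo quickly from early endosomes to the cell surface, was at 10.3, 10.5 and 11.9 FPKM in si-SCR and at 7.09 and 8.69 FPKM in si-circVAMP3. All si-SCR libraries were higher, and RAB4A fell by 27.6% (log2 difference -0.45, SE 0.098, adjusted p = 0.0167). RAB31, which links the trans-Golgi network to endosomes, fell by 12.4% (log2 difference -0.18, SE 0.050, adjusted p = 0.0355), from 9.61, 9.97 and 9.97 FPKM in si-SCR to 8.47 and 8.78 FPKM in si-circVAMP3. These calls depended on single libraries. Without si-circVAMP3 library 1 the adjusted p was 0.102 for RAB4A and 0.192 for RAB31, and RAB31 also missed the threshold without si-circVAMP3 library 2 (adjusted p = 0.114), si-SCR library 1 (adjusted p = 0.0521) or si-SCR library 2 (adjusted p = 0.114). RAB14, RAB20, RAB21 and RAB22A, the other early endosome genes, had log2 differences between -0.11 and 0.14 and were not called. RAB20 was the most variable of them, at 1.54, 1.35 and 0.426 FPKM in si-SCR and 0.895 and 1.27 FPKM in si-circVAMP3, with si-SCR library 3 the lowest of the 5. Its interval, from -0.74 to 0.84 on the log2 scale, leaves a sizeable difference in either direction undetectable. The RAB20 value was -0.31 without si-SCR library 3 and 0.26 without si-SCR library 1, so it gives no direction.

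Between endoplasmic reticulum and Golgi, 12 RAB genes were tested, of which 2 fell (16.7%, near the 15.8% of all genes), 3 rose (25%, against 14.6%) and 7 were not called. RAB34 was at 36.9, 40.1 and 39.6 FPKM in si-SCR and at 49.2 and 52.0 FPKM in si-circVAMP3. Both si-circVAMP3 libraries exceeded all controls, and RAB34 rose by 30.3% (log2 difference 0.38, SE 0.052, adjusted p = 0.00366), a call kept in all 14 alternative fits. RAB39B, whose loss causes an X-linked brain disorder in people, was at 1.26, 1.40 and 1.39 FPKM in si-SCR and at 0.775 and 0.610 FPKM in si-circVAMP3. It fell by 48.6% without overlap of the groups (log2 difference -0.63, SE 0.093, adjusted p = 0.00449), although as few as 49 fragments supported it in 1 library. RAB39A, its paralogue, had a log2 difference of 0.01 with an interval from -0.20 to 0.22 and was not called.

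The RAB1 genes, which control transport from the endoplasmic reticulum to the Golgi, moved in opposite directions. RAB1B was at 84.6, 82.1 and 74.5 FPKM in si-SCR and at 65.6 and 64.3 FPKM in si-circVAMP3. Its controls were spread more widely than its knock-down libraries but all lay above them, and RAB1B fell by 19.2% (log2 difference -0.30, SE 0.060, adjusted p = 0.0116). RAB1A, the less abundant of the pair, was at 21.7, 22.1 and 21.7 FPKM in si-SCR and at 23.9 and 25.8 FPKM in si-circVAMP3. It rose by 13.9% (log2 difference 0.18, SE 0.048, adjusted p = 0.0305), and its share of the RAB1 sum was 20.4%, 21.2% and 22.5% in si-SCR and 26.7% and 28.6% in si-circVAMP3. The RAB1B call was lost without si-circVAMP3 library 1 (adjusted p = 0.0701) or 2 (adjusted p = 0.0852). The RAB1A call was lost without si-SCR library 1 (adjusted p = 0.0667), si-SCR library 2 (adjusted p = 0.0805), si-circVAMP3 library 1 (adjusted p = 0.0561) or si-circVAMP3 library 2 (adjusted p = 0.193), and with a robust prior without a trend (adjusted p = 0.0582).

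RAB2B, a RAB of Golgi membranes and their return traffic, was at 7.72, 7.84 and 7.53 FPKM in si-SCR and at 10.0 and 9.23 FPKM in si-circVAMP3. Both si-circVAMP3 values stood above the narrow control range, and RAB2B rose by 25.1% (log2 difference 0.30, SE 0.057, adjusted p = 0.00981), a call lost without si-circVAMP3 library 1 (adjusted p = 0.0832). RAB2A was at 13.4, 13.1 and 13.4 FPKM in si-SCR and at 14.6 and 14.8 FPKM in si-circVAMP3, without overlap, and just missed the threshold (log2 difference 0.14, SE 0.044, adjusted p = 0.0502). It passed when genes under a mean of 1 FPKM were left out (adjusted p = 0.0477). The Golgi genes RAB6A, RAB6B, RAB18, RAB30 and RAB33B were not called either, with log2 differences between -0.14 and 0.17.

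**Figure D4:**
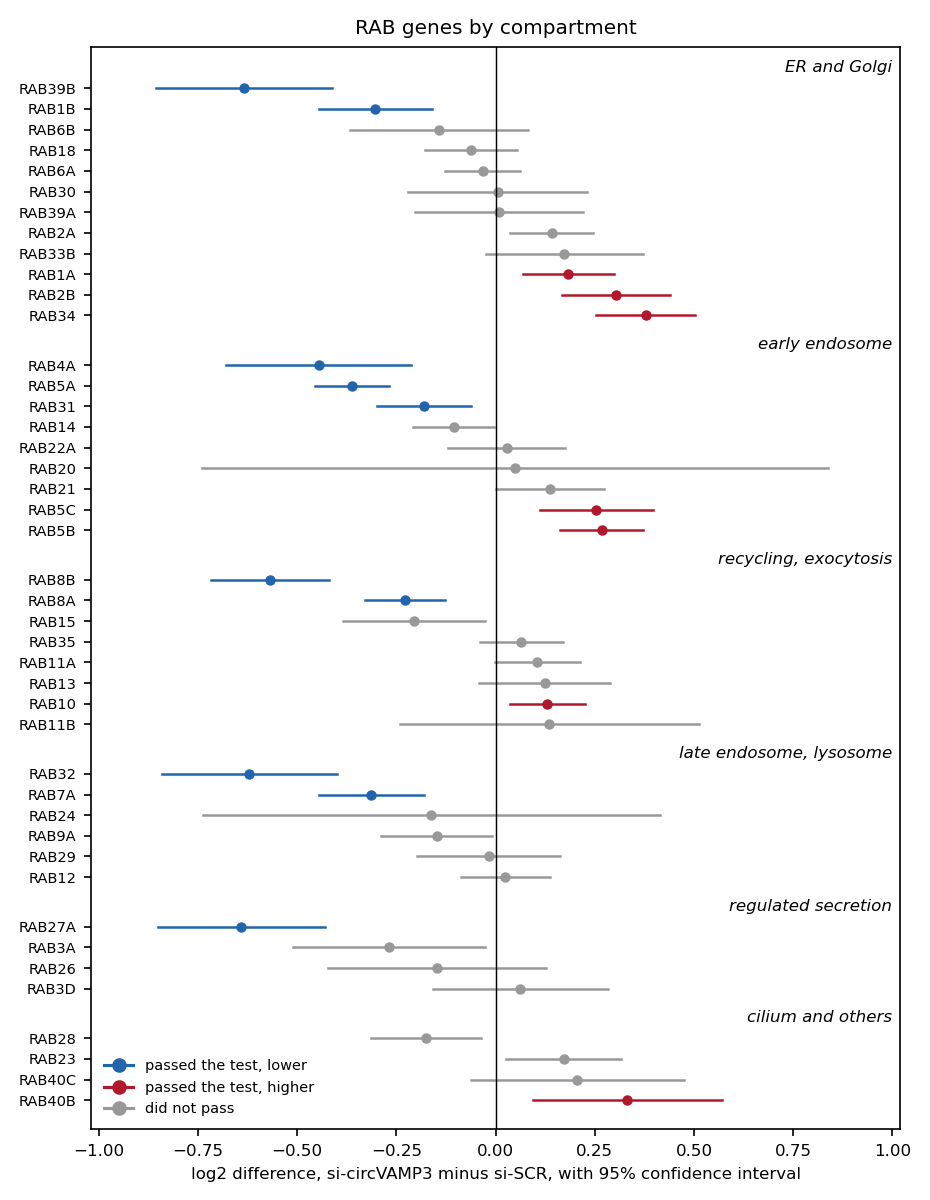
Log2 difference in level (si-circVAMP3 minus si-SCR) of the 43 tested RAB genes, grouped by compartment, with bars for the 95% confidence interval. Genes that passed the test lower (10) and higher (7) lie on both sides of 0 within the Golgi, early endosome and recycling groups, and RAB20 and RAB24 have the widest bars.

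Among the 8 RAB genes of recycling and delivery to the plasma membrane, 2 fell (25%, against 15.8% of all genes), 1 rose (12.5%, near the 14.6% of all genes) and 5 were not called. RAB8B and RAB8A, which carry cargo from the trans-Golgi network and recycling endosomes to the surface and into the cilium, fell together. RAB8B was at 11.2, 11.0 and 12.1 FPKM in si-SCR and at 7.26 and 7.77 FPKM in si-circVAMP3. The gap between the groups was several times the spread within them, and RAB8B fell by 34.1% (log2 difference -0.57, SE 0.062, adjusted p = 0.00167). RAB8A was at 17.2 FPKM in each of the 3 si-SCR libraries and at 14.8 and 14.4 FPKM in si-circVAMP3. It fell by 15.1% (log2 difference -0.23, SE 0.042, adjusted p = 0.00937), and its call was lost without si-circVAMP3 library 1 (adjusted p = 0.056) or 2 (adjusted p = 0.0783). Of the windows of RAB8A, 4.4% are shared with the overlapping gene HSH2D. The RAB8 sum was 28.4, 28.1 and 29.3 FPKM in si-SCR and 22.1 and 22.2 FPKM in si-circVAMP3. Neither RAB8 transcript holds the 7 bases, and their part in the RAB levels was not tested.

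RAB10, which delivers vesicles such as those with the glucose transporter GLUT4, was at 38.1, 37.2 and 37.7 FPKM in si-SCR and at 41.9 and 40.7 FPKM in si-circVAMP3. It rose by 9.6% (log2 difference 0.13, SE 0.039, adjusted p = 0.0457), the smallest difference among the called RAB genes. The call was kept in 5 of the 14 alternative fits, the fewest among the 17 called genes. It was lost without any 1 of the libraries, with adjusted p of 0.0748, 0.137 and 0.0501 without si-SCR library 1, 2 and 3 and 0.233 and 0.129 without si-circVAMP3 library 1 and 2, and also with quantile normalization (adjusted p = 0.112), a robust prior (adjusted p = 0.102) and voom (adjusted p = 0.0581). The recycling endosome gene RAB11A had mean levels of 20.6 FPKM (SD 0.588, n = 3) in si-SCR and 22.2 FPKM (SD 0.356, n = 2) in si-circVAMP3. It was not called (log2 difference 0.11, adjusted p = 0.124). RAB11B was at 15.7, 13.2 and 10.7 FPKM in si-SCR and at 12.9 and 15.9 FPKM in si-circVAMP3, so that its groups overlapped, with si-SCR library 3 the lowest of the 5. RAB13, RAB15 and RAB35 were not called. RAB15 was called without si-SCR library 3 (log2 difference -0.25, adjusted p = 0.0289).

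Of the 6 RAB genes of late endosomes, lysosomes and related organelles, 2 fell (33.3%, against 15.8% of all genes), 0 rose (against 14.6%) and 4 were not called. RAB7A, the main RAB of late endosomes and lysosomes and the most abundant RAB transcript of these cells, was at 81.3, 89.0 and 90.8 FPKM in si-SCR and at 70.7 and 69.1 FPKM in si-circVAMP3. Every control library was higher, and RAB7A fell by 19.7% (log2 difference -0.31, SE 0.055, adjusted p = 0.00802). The call was lost without si-circVAMP3 library 1 (adjusted p = 0.0551) or 2 (adjusted p = 0.0697). RAB32, which serves melanosomes and other lysosome-related organelles, was at 42.7, 45.1 and 44.5 FPKM in si-SCR and at 25.3 and 32.0 FPKM in si-circVAMP3. The 2 si-circVAMP3 libraries differed from each other more than the controls did, yet both lay well below them, and RAB32 fell by 35.0% (log2 difference -0.62, SE 0.093, adjusted p = 0.0047). RAB9A, RAB12 and RAB29 were not called, with log2 differences between -0.15 and 0.02. RAB24 was at 4.25, 3.70 and 2.08 FPKM in si-SCR and at 2.87 and 2.78 FPKM in si-circVAMP3, where si-SCR library 3 lay below the other 4. Its log2 difference was -0.16 (adjusted p = 0.649) with all libraries and -0.43 (adjusted p = 0.0105) without si-SCR library 3. In addition, 55.7% of its windows are shared with the overlapping gene MXD3.

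The RAB genes of regulated secretion were low in RH4 cells, the 4 tested ones having means from 0.526 to 1.57 FPKM. RAB27A, which tethers secretory lysosomes and exosome-forming bodies to the plasma membrane, was at 0.663, 0.671 and 0.758 FPKM in si-SCR and at 0.250 and 0.285 FPKM in si-circVAMP3. The si-circVAMP3 values were under every control value, and RAB27A fell by 61.6%. Its mean of 0.526 FPKM over the 5 libraries passed the filter of 0.5 FPKM only through the si-SCR libraries, and it was not tested with a filter of 1 FPKM. On the log2 scale with a pseudocount of 0.5 FPKM, which compresses such low levels, the difference was -0.64 (SE 0.088, adjusted p = 0.00354). With no filter on low values, where entry into the test does not depend on that mean, the difference was -0.64 as well (adjusted p = 0.00212). It was -1.12 with a pseudocount of 0.1 FPKM and -1.36 on the recovered fragments, of which at least 52 supported it in every library. RAB3A, of synaptic vesicles, was at 0.735, 0.627 and 0.561 FPKM in si-SCR and at 0.483 and 0.408 FPKM in si-circVAMP3. Its mean of 0.563 FPKM over the 5 libraries also passed the filter only through the si-SCR libraries. RAB3A did not pass the test (log2 difference -0.27, adjusted p = 0.0875). RAB3D and RAB26 were not called.

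The 4 remaining tested genes act at the cilium or elsewhere. Of these, 0 fell (against 15.8% of all genes), 1 rose (25%, against 14.6%) and 3 were not called. RAB40B, which recruits a ubiquitin ligase through a SOCS box, was at 1.72, 1.44 and 1.81 FPKM in si-SCR and at 2.08 and 2.34 FPKM in si-circVAMP3. Both si-circVAMP3 values were above the controls, and RAB40B rose by 33.5% (log2 difference 0.33, SE 0.10, adjusted p = 0.0461). The call was lost with no filter on low values (adjusted p = 0.0508) and without si-SCR library 1 (adjusted p = 0.0731), si-SCR library 2 (adjusted p = 0.115), si-circVAMP3 library 1 (adjusted p = 0.107) or si-circVAMP3 library 2 (adjusted p = 0.242). Its paralogue RAB40C was not called (log2 difference 0.21, adjusted p = 0.212). The RAB40C value moved with single libraries, to 0.11 without si-SCR library 3 and 0.3 without si-SCR library 1. RAB23, a negative regulator of Hedgehog signalling, and RAB28, a RAB of photoreceptor cilia, missed the threshold with log2 differences of 0.17 (adjusted p = 0.075) and -0.18 (adjusted p = 0.0602). RAB23 was called without si-SCR library 3 (adjusted p = 0.0374).

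The 4 RAB genes under the filter were RAB3B, RAB7B, RAB9B and RAB43. The transcripts of RAB3B, RAB7B and RAB43 also hold GTGGACA, in the 3′ UTR. RAB7B was at 0.498, 0.413 and 0.489 FPKM in si-SCR and at 0.278 and 0.226 FPKM in si-circVAMP3, and RAB3B at 0.499, 0.507 and 0.599 FPKM and at 0.393 and 0.340 FPKM. Both lay lower in the 2 si-circVAMP3 libraries and were not tested in the main comparison; RAB7B was called lower when the filter was left out, and RAB3B was not. RAB9B and RAB43 overlapped between the groups. The 16 genes without a row were RAB17, RAB19, RAB25, RAB27B, RAB33A, RAB36, RAB37, RAB38, RAB3C, RAB40A, RAB41, RAB42, RAB44, RAB4B, RAB6C and RAB6D, so RAB27A, RAB4A and RAB40B could not be set beside a full set of paralogues.

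The proteins that serve RAB GTPases were examined as 4 lists. Of the 8 genes for the RAB prenyltransferase, escort proteins and GDIs, limma called 0, against 30.4% of all genes. In this list, 1 gene had an unadjusted p under 0.05 and 1 was called lower by voom. GDI2 and the prenyltransferase subunit genes RABGGTA and RABGGTB had log2 differences between 0.02 and 0.04. The median of the list was 0.013.

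Of 31 GEF genes tested, 6 fell and 2 rose (25.8% called, median log2 difference -0.088). Of all genes, 15.8% fell and 14.6% rose (30.4% called). The 4 with the smallest adjusted p all fell: DENND5B, TRAPPC10, DENND4A and DENND1A. DENND5B belongs to a DENN-domain pair linked to RAB39 and had mean levels of 2.88 FPKM (SD 0.0766, n = 3) in si-SCR and 2.12 FPKM (SD 0.0253, n = 2) in si-circVAMP3, with a log2 difference of -0.37 (SE 0.065, limma adjusted p = 0.00804). TRAPPC10, a subunit of the TRAPPII exchange complex, had a log2 difference of -0.43 (SE 0.076, adjusted p = 0.00814). DENND4A, linked to RAB10, and DENND1A, the exchange factor of RAB35, had log2 differences of -0.38 and -0.37. All 4 calls were lost without si-circVAMP3 library 1 (adjusted p from 0.0568 to 0.084) or 2 (adjusted p from 0.0554 to 0.113), and those of DENND4A and DENND1A without si-SCR library 2 (adjusted p = 0.0638 and 0.066).

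Of 30 GAP genes tested, 4 fell and 3 rose (23.3% called, median log2 difference -0.096), against 15.8% lower and 14.6% higher of all genes. RABGAP1, a GAP that binds RAB6, was at 11.2, 11.5 and 12.5 FPKM in si-SCR and at 6.62 and 6.75 FPKM in si-circVAMP3. The groups were far apart, with a log2 difference of -0.76 (SE 0.062, adjusted p = 0.000677). TBC1D9 also fell, with a log2 difference of -0.59 (SE 0.082, adjusted p = 0.0037). TBC1D2B and TBC1D13, the latter a GAP of RAB35, rose with log2 differences of 0.45 (SE 0.058, adjusted p = 0.00273) and 0.41 (SE 0.060, adjusted p = 0.00427).

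Of 48 effector genes tested, 8 fell and 5 rose (27.1% called, median log2 difference -0.051), against 15.8% lower and 14.6% higher of all genes. EHBP1L1, which joins RAB8 to membrane-shaping proteins, was at 17.2, 14.6 and 12.9 FPKM in si-SCR and at 5.70 and 5.80 FPKM in si-circVAMP3. The controls varied, but every one exceeded both si-circVAMP3 libraries by more than that spread, and the log2 difference was -1.29 (SE 0.110, adjusted p = 0.000774). BICD2, which couples RAB6 vesicles to dynein, was at 14.5, 13.8 and 13.2 FPKM in si-SCR and at 7.93 and 7.49 FPKM in si-circVAMP3 (log2 difference -0.80, SE 0.059, adjusted p = 0.000443). APPL2, an adaptor on RAB5 endosomes, and MICAL1, an actin-oxidising enzyme bound by RAB8-type GTPases, fell with log2 differences of -0.50 and -0.52. Each of these 4 effector genes holds its call in the fits that leave out 1 library.

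The share called in each of the 4 lists was below the 30.4% of all genes with limma-trend. With voom it was 12.5% for the prenylation, escort and GDI list, 32.3% for GEFs, 36.7% for GAPs and 33.3% for effectors, against 33.5% of all genes. Taking the lists as 1 set of 117 tested genes, 46 hold the 7 bases GTGGACA, and of these 14 were called lower (30.4%, against 27.4% of all coding genes with the 7 bases) and 1 higher (2.17%, against 8.94%). Of the 71 without them, 4 were called lower (5.63%, against 11.1% of all coding genes without the 7 bases) and 9 higher (12.7%, against 18.8%). By list, 6 of 15 GEFs (40%), 3 of 11 GAPs (27.3%) and 5 of 18 effectors (27.8%) with the 7 bases were called lower. Without the 7 bases, 0 of 16 GEFs, 1 of 19 GAPs (5.26%) and 3 of 30 effectors (10%) were. The prenylation list had 0 lower. Of the list genes named as called, MICAL1, TBC1D2B and TBC1D13 lack the 7 bases and the others hold them. Whether the match bears on these levels was not tested.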

How the data were processed

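Poly-A RNA of 5 RH4 libraries was sequenced. According to the submitters' processing notes and the study's methods, reads were demultiplexed with bcl2fastq 2.20.0.422, trimmed with Trimmomatic, aligned to GRCh38 (Ensembl 99) with STAR 2.5.2b and counted on the reverse strand with htseq-count, which leaves out ambiguous fragments. The authors removed genes with low counts and computed the deposited FPKM values with edgeR. Symbols and positions came from GENCODE 44 (39 identifiers had no symbol). Genes with a mean of at least 0.5 FPKM were tested with limma 3.58.1 (R 4.3.3, trended prior, two-sided) on log2(FPKM + 0.5). Benjamini-Hochberg adjustment was over 12245 genes, with calls at an adjusted p under 0.05. The fit was also run on simulated counts with the same added spread in every gene and library. In the real data si-SCR library 3 stood apart, so that run does not bear on these calls. The pseudocount makes log2 differences understate changes of low genes. Whole fragments were recovered from FPKM ratios between libraries for 100.0% of rows, 94.3% of them within 20% of the median library size. The alternatives changed the pseudocount, filter, scaling, prior, call rule, replicate block and libraries; voom on recovered fragments was added after seeing the data. Named genes were VAMP3, all called RAB genes, the 8 most abundant, paralogues of these, RAB genes under the filter and up to 4 called genes per list, and others were named after their values were seen. The values of 1 listed gene are not reported here. The members and lists were chosen with earlier results of these data known.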

Additional observations from a re-analysis of the deposited data

How the results depend on the processing

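All 17 called RAB genes kept their direction in every alternative that tested them, and RAB5A, RAB8B, RAB32, RAB34 and RAB39B were called in all 14 alternative fits. RAB27A was called in the 13 that tested it. RAB39B entered the fit with a filter of 1 FPKM only through its higher si-SCR levels, so that fit adds no support for its call. Pseudocounts, filters, scalings, the robust prior and voom gave 15 to 17 called RAB genes. With the cutoff of 0.58, 3 RAB genes were lower and 0 higher, as were 333 and 133 of all genes, by construction; over the alternative fits, 1 to 4 RAB genes were lower past that cutoff and 0 higher. Leaving out 1 library gave 5 to 12 RAB genes lower, 1 to 7 higher, 777 to 2015 of all genes lower and 483 to 1985 higher; the fewest came without an si-circVAMP3 library, where the lone one left was assumed to vary like the controls. VAMP3 ranged from -0.31 to -0.27. With the replicate block, 10 RAB genes were lower and 3 higher, and 1662 and 1460 of all genes. Of the 17 called RAB genes, 12 were still called, and RAB10, RAB5C, RAB1A, RAB40B and RAB31 were not. RAB24 was called lower with the block (log2 difference -0.43, adjusted p = 0.0224). DENND4A lost its call with it (log2 difference -0.34, adjusted p = 0.0548). Deviations of same-numbered libraries correlated at -0.15 and -0.04, so the numbers give no pairing. The cause of calls lost was not tested. Only 2 si-circVAMP3 libraries, 1 of them with 20598200 fragments, limit small differences and low genes such as RAB27A, RAB39B and RAB20.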
